A study of Mus musculus with 9 samples.

Results

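The motile cilium genes described here are a hand-made list of 39 mouse genes, followed across 9 arrays of lung organoid RNA. Many encode parts of the beating cilium, while others act in its assembly (Zmynd10) or encode cell surface proteins (Cdhr3 and Cdhr4). The list holds dyneins, radial spoke and central pair proteins, tektins and 18 other genes, and its members are found by gene name with no threshold on a measured value. They were chosen with earlier results of these data known, so the shares of members called below are not independent of that choice. Of the 39, 36 were measured through an array feature that carries their symbol alone, out of 22180 genes named in that way. Dnah3 and Dnah12 had no such feature and Ccdc39 shared its only one with Ttc14, so these 3 genes have no array values here.

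The organoids were grown from lung cells of male BALB/c mice that were 8 to 12 weeks old, and each group was measured on 3 arrays. The CSD14 group came from mice that breathed cigarette smoke for 12 weeks and was harvested on culture day 14. The CSD5 group came from smoke-exposed mice too and was harvested on day 5. The ND14 group came from naïve mice kept in clean air and was harvested on day 14. Cells of the digested right lung, with no sorting of a cell type, were embedded in growth factor-reduced Matrigel and first kept in a proliferation medium. After day 6 this was replaced by a medium with 2% in place of 5% serum, with or without inhibitors of ROCK and TGF-β, to bring on differentiation. By these descriptions CSD14 and ND14 differ in exposure, CSD5 and CSD14 in day and medium, and CSD5 and ND14 in all of these. Whether CSD14 and ND14 had the same inhibitors, or shared a culture or array run, is not stated. The labels number the replicates as biological but do not tie them to separate mice or cultures. The p-values therefore set each difference against the spread of these particular samples, and may not speak for variation between mice.

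Multiciliated cells of the airway carry many motile cilia, which beat together to move mucus out of the lung. The core of each cilium, the axoneme, is a ring of microtubule doublets around a central pair. Outer and inner dynein arms slide the doublets against each other, radial spokes and the central pair regulate the arms, and tektins and other proteins stabilise the doublet wall. The program that switches these genes on is driven by Gmnc, Mcidas, Foxj1 and the RFX factors.

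Each Affymetrix Mouse Gene 2.0 ST array gave a log2 signal for each of 34472 transcript clusters, its units for a gene. A signal can be compared between arrays but not between genes, because each gene has its own probes. Array medians lay between 2.79 and 3.04, so a signal near 3 is close to the middle of the array. Differences were tested with limma, a linear model that shares information on spread across features, and "rose" and "fell" are used where the p, adjusted over all 34472 clusters, was under 0.05. CSD5 replicate 1 stood apart from its group. Over all clusters it correlated at a mean of 0.991 with ND14 and of 0.973 with the rest of CSD5. The counts of cilium genes that use CSD5 are therefore also given without it, as are the members whose call it changed.

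Genes of the airway club cell, a secretory cell, had mean signals of 8.14 to 9.29 per array. Endothelial markers stayed at 2.49 to 2.95, near the array medians, and so did 3 neuroendocrine markers at 2.66 to 3.15. Spermatid genes were included because sperm tails share many axoneme genes, and their mean signal was 3.51 to 3.74 on all 9 arrays with 0 of 6 called in any comparison.

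The motile cilium genes were highest in the smoke organoids at day 14. The mean signal over the 36 genes was 4.64, 4.67 and 4.56 in the CSD14 arrays, 3.72, 3.85 and 3.74 in the ND14 arrays and 3.77, 3.65 and 3.23 in the CSD5 arrays. The CSD14 arrays thus lay above all the others, while the CSD5 and ND14 ranges overlapped. In 25 of the 36 genes every CSD14 array was above all 6 other arrays, an arrangement found in 8.08% of all clusters. The group means ran CSD14, ND14, CSD5 from high to low in 31 genes and CSD14, CSD5, ND14 in 4, orders found in 25.6% and 17.3% of all clusters. In Spag6 the CSD14 and ND14 means were equal. The lowest array was CSD5 replicate 3 in 30 of the 36. Members under the median of their array numbered 2 on each CSD14 array, 6 or 7 on the ND14 arrays and 5 to 15 on the CSD5 arrays. In RNA of whole organoids, fewer ciliated cells and less RNA of these genes per cell cannot be told apart.

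**Figure D1:**
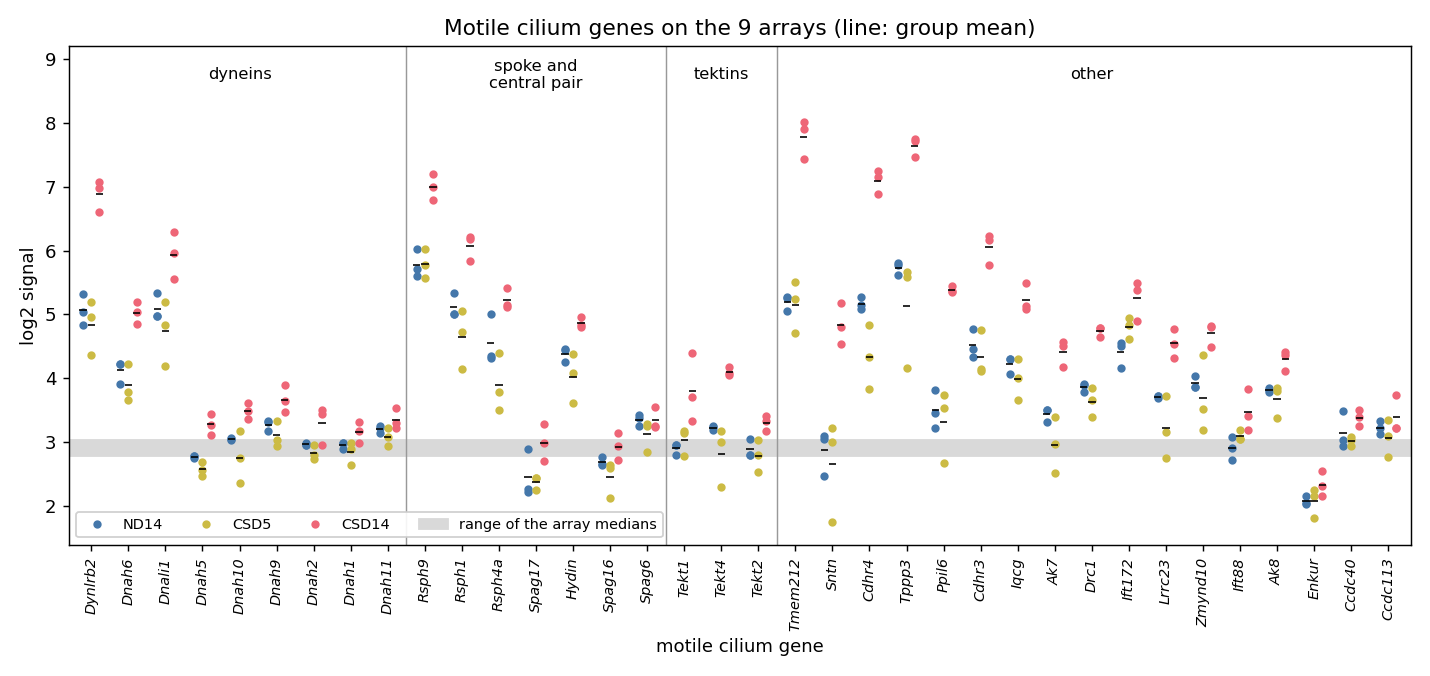
Log2 signal of the 36 measured motile cilium genes, with a point for each of the 9 arrays and a line for each group mean. The CSD14 points lie above the other 6 in 25 genes, such as Tmem212, Cdhr4 and Dynlrb2, and mix with them in genes such as Spag6 and Dnah11.

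In the comparison of smoke with naïve organoids at day 14, 18 of the 36 genes rose, 0 fell and 18 were not called. Over all clusters 5.48% were called higher in CSD14 and 3.66% lower. The median difference of the 36 was 0.80 on the log2 scale, against 0.00 for all clusters, and 35 of the 36 differences were above 0. The groups did not overlap, with CSD14 higher, in 27 genes, against 13.1% of clusters. The difference was over 1 log2 unit in 9 members and in 3.14% of the named genes. Without CSD5 replicate 1, which enters only the shared estimate of spread, 20 members rose against 6.47% of clusters.

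The comparison of day 5 with day 14 in smoke organoids shares the CSD14 arrays with the first, so a high CSD14 value moves both. Here 19 of the 36 genes were lower at day 5, 0 were higher and 17 were not called, beside 1.91% of clusters called lower and 0.496% higher. All 36 differences were below 0, with a median of -0.93 on the log2 scale beside -0.09 for all clusters. In all clusters, the orders of group means with CSD5 below CSD14 held 17.3%, 25.6% and 24.3%. CSD5 lay wholly below CSD14 in 28 genes, against 14.0% of clusters. Without CSD5 replicate 1 the count was 24 lower with a median of -1.11, against 2.87% of clusters. Leaving out CSD14 replicate 1 gave 11, leaving out CSD14 replicate 3 gave 12, and a fit of the 6 arrays of this comparison alone gave 7. The share of all clusters called was not counted for these fits.

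Between day 5 smoke and day 14 naïve organoids, 0 of the 36 genes passed limma's adjusted threshold. Among all clusters the shares called were 0.00290% higher and 0% lower. The median difference of the members was -0.21, beside -0.09 for all clusters. An unadjusted limma p under 0.05 was reached by 4 members, all lower in CSD5, and by 13.8% of all clusters in either direction. The groups did not overlap in 3 genes lower in CSD5 (Dnah5, Tekt4 and Cdhr4) and in 1 higher gene (Ift172), beside 8.97% and 4.31% of clusters. This outcome rested on CSD5 replicate 1. Without it 5 genes were lower in CSD5 and 0 higher, with a median of -0.29, and among all clusters 6.27% were lower and 3.40% higher. The 5 were Cdhr4 (limma adjusted p = 0.00332), Lrrc23 (0.0195), Rsph4a (0.0264), Ak7 (0.0327) and Zmynd10 (0.0462).

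**Figure D2:**
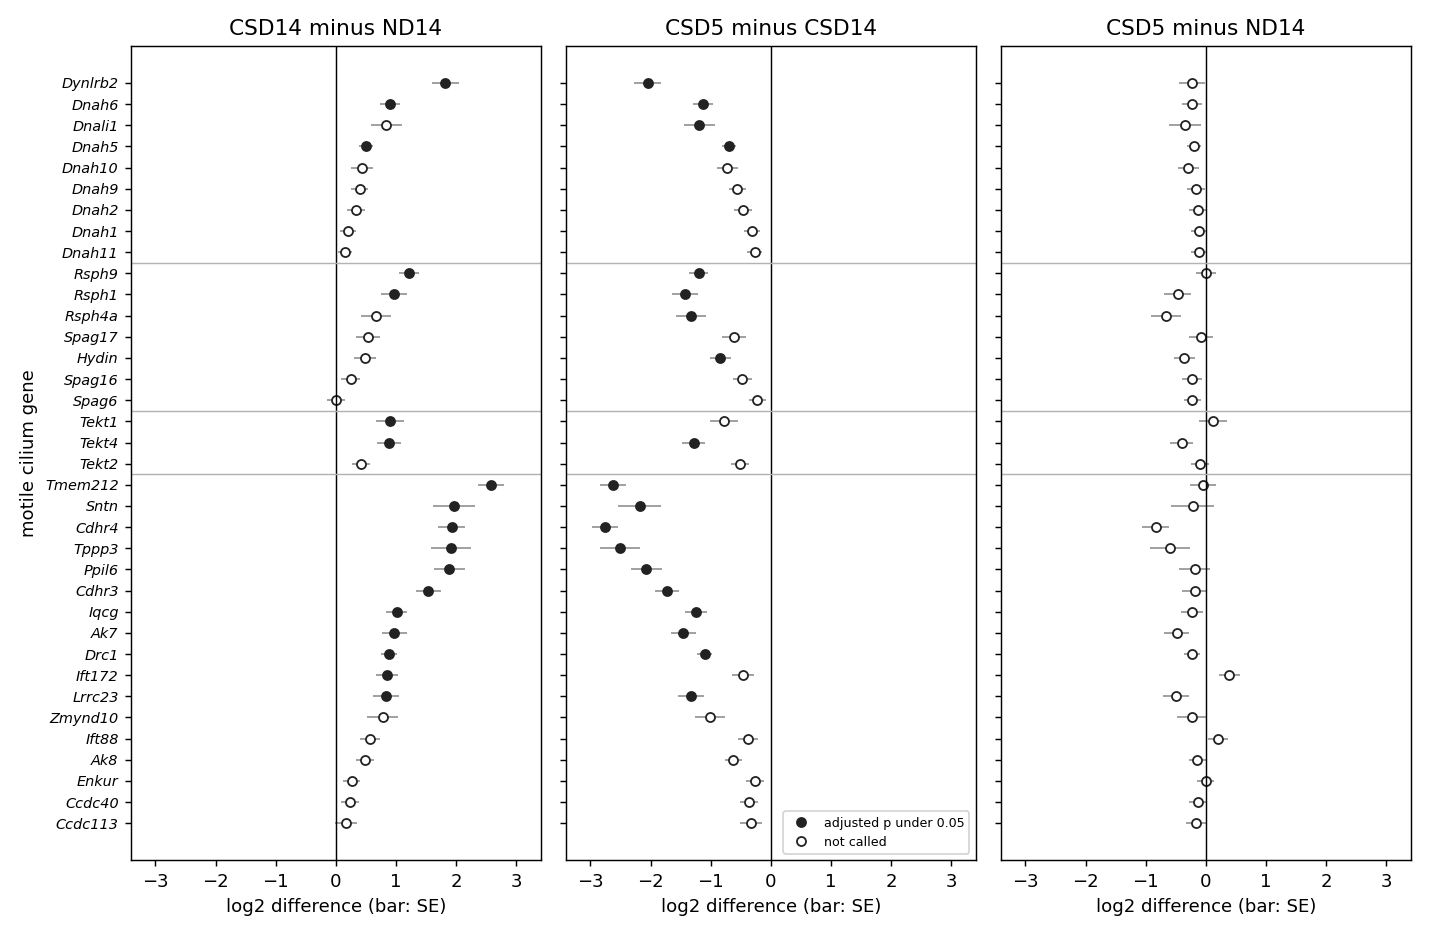
Log2 differences of the 36 genes in the 3 comparisons, ordered by role, with bars of 1 standard error and filled points for a limma adjusted p under 0.05. Points lie to the right for CSD14 against ND14 (18 filled), to the left for CSD5 against CSD14 (19 filled) and near 0 for CSD5 against ND14 (0 filled).

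The smallest adjusted p-values in CSD14 against ND14 belonged to Tmem212, Cdhr4, Dynlrb2, Cdhr3, Ppil6 and Rsph9. Their promoters are shown because RFX factors bind ciliary promoters, and control of these genes by RFX factors was not tested. Each window runs from 80 bases before to 50 after the RefSeq transcription start, 5′ to 3′ on the gene's strand, from the GRCm38.p6 assembly. Capitals mark the RFX X-box (GTNNCC and GGNNAC with NN between them) or the shorter RFX motif GTTGCC, searched on both strands, so that GGCAAC is the same motif on the other strand. An X-box that begins with GTTGCC holds both.
Tmem212: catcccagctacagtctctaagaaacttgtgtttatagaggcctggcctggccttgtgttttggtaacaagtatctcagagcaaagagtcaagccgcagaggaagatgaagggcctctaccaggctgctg
Cdhr4: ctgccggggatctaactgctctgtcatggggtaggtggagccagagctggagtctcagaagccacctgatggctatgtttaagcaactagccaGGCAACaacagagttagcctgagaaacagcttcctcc
Dynlrb2: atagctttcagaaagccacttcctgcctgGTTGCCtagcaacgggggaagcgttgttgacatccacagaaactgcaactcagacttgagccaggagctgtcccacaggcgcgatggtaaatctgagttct
Cdhr3: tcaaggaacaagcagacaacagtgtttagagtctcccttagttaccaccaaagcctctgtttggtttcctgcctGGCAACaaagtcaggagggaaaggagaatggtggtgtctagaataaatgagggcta
Ppil6: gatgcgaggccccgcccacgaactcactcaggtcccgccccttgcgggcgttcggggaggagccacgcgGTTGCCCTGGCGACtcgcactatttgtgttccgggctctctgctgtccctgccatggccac
Rsph9: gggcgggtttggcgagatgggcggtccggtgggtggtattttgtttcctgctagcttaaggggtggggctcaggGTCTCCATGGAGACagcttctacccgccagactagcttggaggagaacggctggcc

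The windows lie at chr3:27896319-27896448 on the minus strand (Tmem212), chr9:107992377-107992506 on the plus strand (Cdhr4), chr8:116504935-116505064 on the plus strand (Dynlrb2), chr12:33092826-33092955 on the minus strand (Cdhr3), chr10:41490359-41490488 on the plus strand (Ppil6) and chr17:46144151-46144280 on the minus strand (Rsph9). Ppil6 and Rsph9 hold an X-box, which starts at -11 and -6 from the start site. Dynlrb2 holds GTTGCC at -51, and Cdhr3 and Cdhr4 hold its reverse complement at -6 and 13. Tmem212 has no match in these letters.

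Across the 38 RefSeq promoters of 35 members, Dnah12 and Ccdc39 included, each 300 bases long, GTTGCC was found in 21, or 55.3%, and in 12.5% of all 32851 promoters of that length. The X-box was found in 4 (Rsph9, Tekt4, Ppil6 and Zmynd10), or 10.5%, against 1.88% of all promoters. The forkhead motif TGTTTAC, of the kind bound by Foxj1, was found in 2 (Sntn and Ak7), or 5.26%, against 3.65%. Promoters of other motile cilium genes held GTTGCC in 41.8%, the X-box in 20.9% and the forkhead motif in 7.46%. For genes shared with non-motile cilia the shares were 41.2%, 25.5% and 0%. The RFX motifs were thus not particular to the members, and the X-box was less frequent in them than in either related list. Counted by gene, GTTGCC was in 20 of the 35 members, or 57.1%, against 14.1% of all genes with a promoter, since some windows of Tekt2 overlap. Members that rose in CSD14 against ND14 were 11 of the 20 measured with GTTGCC and 5 of the 13 measured without it. In CSD5 against CSD14 those that fell were 10 of 20 and 6 of 13. A match of letters is a description and not a site of binding.

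The dynein arms drive the beat through their heavy chains, and Dynlrb2 is not one of these. Of 9 dynein genes measured, 3 rose in CSD14 against ND14 (median log2 difference 0.43) and 4 were lower in CSD5 than in CSD14 (median -0.70). These counts were 4 and 6 without CSD5 replicate 1. Dynlrb2, a roadblock-type light chain, had log2 signals of 6.98, 7.07 and 6.61 in CSD14, 5.04, 4.84 and 5.32 in ND14 and 4.96, 5.19 and 4.36 in CSD5. All CSD14 arrays were well above every other array. It was 3.53-fold higher in CSD14 than in ND14 (log2 difference 1.82, SE 0.22, limma adjusted p = 0.00159) and differed by -2.05 between CSD5 and CSD14 (adjusted p = 0.00289).

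The inner arm heavy chain gene Dnah6 read 4.85, 5.04 and 5.19 in CSD14, 4.23, 4.23 and 3.92 in ND14 and 4.23, 3.79 and 3.67 in CSD5. CSD14 stood clear of both other groups, which overlapped. The differences were 0.90 (SE 0.17, limma adjusted p = 0.00919) from ND14 and -1.13 (adjusted p = 0.0109) for CSD5 against CSD14. Dnah5, an outer arm heavy chain whose loss causes primary ciliary dyskinesia, read 3.45, 3.12 and 3.27 in CSD14, 2.79, 2.79 and 2.75 in ND14 and 2.70, 2.57 and 2.48 in CSD5. The 3 groups did not overlap, but CSD5 against ND14 was not called (-0.19, limma adjusted p = 0.480). Every ND14 and CSD5 value of Dnah5 was below the median of its array. The differences of Dnah5 were 0.50 (limma adjusted p = 0.0241) for CSD14 against ND14 and -0.70 (adjusted p = 0.018) for CSD5 against CSD14.

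Dnali1, a light intermediate chain of the inner arms, read 6.29, 5.96 and 5.55 in CSD14, 4.97, 5.34 and 4.97 in ND14 and 5.20, 4.83 and 4.20 in CSD5. It missed the threshold against ND14 (0.84, limma adjusted p = 0.0859, and 0.0383 without CSD5 replicate 1) and was lower in CSD5 than in CSD14 (-1.19, SE 0.26, adjusted p = 0.0489). The other heavy chains, Dnah1, Dnah2 and Dnah10 of the inner and Dnah9 and Dnah11 of the outer arms, were called in neither comparison with all 9 arrays. Without CSD5 replicate 1, Dnah10 (-0.93, limma adjusted p = 0.00817) and Dnah9 (-0.68, adjusted p = 0.0326) were lower in CSD5 than in CSD14. With all arrays their differences in CSD14 against ND14 ran from 0.15 for Dnah11 to 0.43 for Dnah10, and in CSD5 against CSD14 from -0.72 for Dnah10 to -0.27 for Dnah11.

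Of the 7 radial spoke and central pair genes, 2 rose in CSD14 against ND14 (median 0.53) and 4 were lower in CSD5 than in CSD14 (median -0.84), the same numbers as without CSD5 replicate 1. Rsph9, a spoke head protein, read 6.99, 7.19 and 6.79 in CSD14, 5.71, 6.03 and 5.60 in ND14 and 5.77, 6.02 and 5.57 in CSD5. ND14 and CSD5 covered nearly the same range. It was 2.31-fold higher in CSD14 than in ND14 (1.21, SE 0.17, limma adjusted p = 0.00237), and the difference of CSD5 from CSD14 was -1.20 (adjusted p = 0.00777).

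Rsph1, another spoke head gene, read 6.18, 6.21 and 5.84 in CSD14, 5.00, 5.33 and 5.01 in ND14 and 5.06, 4.72 and 4.15 in CSD5, and rose by 0.96 (SE 0.22, limma adjusted p = 0.0224) over ND14. Its lowest array was CSD5 replicate 3. Rsph4a, the third spoke head gene, read 5.41, 5.15 and 5.11 in CSD14, 4.32, 5.00 and 4.35 in ND14 and 4.39, 3.78 and 3.50 in CSD5. ND14 replicate 2 came close to the CSD14 range, and the difference of 0.67 was not called (adjusted p = 0.153). CSD5 against CSD14 gave -1.43 for Rsph1 (adjusted p = 0.012) and -1.33 for Rsph4a (SE 0.25, adjusted p = 0.0268).

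Hydin, a very large central pair protein, read 4.96, 4.84 and 4.80 in CSD14, 4.44, 4.46 and 4.25 in ND14 and 4.38, 4.08 and 3.62 in CSD5. Its groups at day 14 did not overlap, yet 0.48 was not called (limma adjusted p = 0.147), while it was lower in CSD5 than in CSD14 (-0.84, adjusted p = 0.0409). Spag16 and Spag17, also of the central pair, were not called, at 0.24 and 0.53 in CSD14 against ND14 and -0.48 and -0.61 in CSD5 against CSD14.

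Spag6, the remaining central pair gene, read 3.26, 3.24 and 3.56 in CSD14, 3.25, 3.38 and 3.43 in ND14 and 3.28, 2.85 and 3.26 in CSD5. It was the only member with no positive difference in CSD14 against ND14 (0.00, limma adjusted p = 1). The mouse has a near copy, Spag6l, for which RefSeq also lists the name Spag6. Spag6l is not a member and was looked at after its values were seen. It read 4.14, 3.92 and 4.85 in CSD14, 3.79, 4.0 and 3.67 in ND14 and 3.69, 3.29 and 3.19 in CSD5. Neither its 0.48 (adjusted p = 0.305) nor its -0.91 (adjusted p = 0.0800) was called, and probes shared by such copies may not separate them.

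Tektins are filament proteins of the doublet microtubules. Tekt4 read 4.06, 4.08 and 4.18 in CSD14, 3.19, 3.25 and 3.24 in ND14 and 3.17, 3.0 and 2.30 in CSD5. All 3 groups were separate, but CSD5 came as near to ND14 as 3.17 to 3.19. That difference was not called (-0.40, limma adjusted p = 0.392). Tekt4 rose by 0.88 over ND14 (SE 0.20, limma adjusted p = 0.0201) and the difference of CSD5 from CSD14 was -1.28 (adjusted p = 0.0118). Tekt1 read 3.33, 4.39 and 3.71 in CSD14, 2.96, 2.81 and 2.96 in ND14 and 3.14, 3.17 and 2.78 in CSD5. Its CSD14 arrays spread over more than a log2 unit, and it rose over ND14 (0.90, SE 0.24, adjusted p = 0.042) with no call between CSD5 and CSD14 (-0.78, adjusted p = 0.133). Tekt2 was called in neither (0.42 and -0.52), but was lower in CSD5 than in CSD14 without CSD5 replicate 1 (-0.64, adjusted p = 0.0427). That left 2 tektins called in each comparison.

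The other 17 measured members held most of the large differences, with 11 rising in CSD14 against ND14 (median 0.88) and 10 lower in CSD5 than in CSD14 (median -1.24), and 12 in each without CSD5 replicate 1. Tmem212, a transmembrane protein gene, read 7.90, 8.01 and 7.43 in CSD14, 5.26, 5.05 and 5.28 in ND14 and 5.24, 5.51 and 4.71 in CSD5. The CSD14 arrays stood far above the other groups, which overlapped. It was 5.99-fold higher in CSD14 than in ND14 (2.58, SE 0.22, limma adjusted p = 0.000365), and CSD5 differed from CSD14 by -2.63 (adjusted p = 0.00117).

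The cadherin-related genes Cdhr3 and Cdhr4 encode cell surface proteins, and human CDHR3 is a receptor for rhinovirus C on ciliated cells. Cdhr4 read 7.15, 6.89 and 7.24 in CSD14, 5.27, 5.15 and 5.09 in ND14 and 4.84, 4.33 and 3.83 in CSD5. Its 3 groups were separate in that order. It was 3.79-fold higher in CSD14 than in ND14 (1.92, SE 0.22, limma adjusted p = 0.00124) and 6.77-fold lower in CSD5 than in CSD14 (-2.76, adjusted p = 0.00117). Cdhr3 read 6.23, 6.17 and 5.78 in CSD14, 4.46, 4.78 and 4.33 in ND14 and 4.12, 4.75 and 4.14 in CSD5, with CSD5 and ND14 overlapping. Its differences were 1.54 (SE 0.20, adjusted p = 0.00212) and -1.72 (adjusted p = 0.00392).

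Tppp3, a tubulin-binding protein found in ciliated cells, read 7.71, 7.75 and 7.46 in CSD14, 5.78, 5.80 and 5.61 in ND14 and 5.58, 5.66 and 4.16 in CSD5. CSD5 replicate 3 lay far below the other 8 arrays. Tppp3 rose by 1.91 over ND14 (SE 0.33, limma adjusted p = 0.00675) and was 5.68-fold lower in CSD5 than in CSD14 (adjusted p = 0.00679). Sntn, which encodes the ciliary tip protein sentan, showed the same low array, with 5.18, 4.81 and 4.54 in CSD14, 2.48, 3.06 and 3.10 in ND14 and 3.23, 3.0 and 1.75 in CSD5. It rose by 1.96 (SE 0.36, adjusted p = 0.00788), with -2.18 for CSD5 against CSD14 (adjusted p = 0.016).

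Ppil6, a cyclophilin-like gene, read 5.35, 5.36 and 5.45 in CSD14, 3.22, 3.82 and 3.46 in ND14 and 3.53, 3.74 and 2.67 in CSD5. The CSD14 arrays lay close together (SD 0.055) and well above the rest. The differences were 1.89 (SE 0.26, limma adjusted p = 0.00228) and -2.07 (adjusted p = 0.00473).

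Drc1 and Iqcg belong to the nexin-dynein regulatory complex, which links neighbouring doublets. Drc1 read 4.79, 4.79 and 4.64 in CSD14, 3.89, 3.79 and 3.91 in ND14 and 3.85, 3.67 and 3.39 in CSD5, a narrow spread in each group. It rose by 0.88 (SE 0.13, limma adjusted p = 0.00326), and CSD5 differed from CSD14 by -1.10 (adjusted p = 0.00392). Iqcg read 5.49, 5.13 and 5.08 in CSD14, 4.30, 4.30 and 4.07 in ND14 and 4.01, 4.30 and 3.66 in CSD5. CSD5 and ND14 overlapped below CSD14, and its differences were 1.01 (SE 0.18, adjusted p = 0.00693) and -1.24 (adjusted p = 0.00872).

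Ak7, an adenylate kinase of the axoneme, read 4.18, 4.50 and 4.57 in CSD14, 3.51, 3.32 and 3.51 in ND14 and 3.40, 2.97 and 2.52 in CSD5. It rose by 0.97 (limma adjusted p = 0.0162) and was lower in CSD5 than in CSD14 (-1.45, adjusted p = 0.00867). Lrrc23, a radial spoke component, behaved alike, with 4.54, 4.32 and 4.78 in CSD14, 3.73, 3.69 and 3.73 in ND14 and 3.73, 3.16 and 2.76 in CSD5. The differences of Lrrc23 were 0.83 (adjusted p = 0.044) and -1.33 (adjusted p = 0.0171). Ak8, a second adenylate kinase, had 0.48 and -0.62 and missed the threshold in both (adjusted p = 0.072 and 0.0583). Without CSD5 replicate 1 it was called in the second of them (-0.69, adjusted p = 0.0464).

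Zmynd10 acts in the cytoplasm, where dynein arms are assembled before transport, and its calls changed when a single array was left out. It read 4.82, 4.80 and 4.49 in CSD14, 3.87, 4.04 and 3.87 in ND14 and 4.37, 3.52 and 3.19 in CSD5. CSD5 replicate 1 was close to the CSD14 range, well above the other CSD5 arrays. With all 9 arrays neither 0.78 (limma adjusted p = 0.104) nor -1.01 (adjusted p = 0.0782) was called. Without that array both were, at adjusted p = 0.00446 and 0.00174. Of the 17 alternatives with an adjusted p, that one included, 3 called Zmynd10 in CSD14 against ND14 and 2 in CSD5 against CSD14.

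Ift172 and Ift88 encode subunits of the intraflagellar transport train, which builds non-motile cilia as well. Ift172 read 5.49, 5.39 and 4.90 in CSD14, 4.16, 4.51 and 4.56 in ND14 and 4.62, 4.95 and 4.83 in CSD5. Here CSD5 lay above ND14 and reached into the CSD14 range, the opposite order of most members. It rose at day 14 with smoke (0.85, SE 0.18, limma adjusted p = 0.0158), with -0.46 (adjusted p = 0.245) for CSD5 against CSD14 and 0.39 (adjusted p = 0.373) for CSD5 against ND14. Ift88 read 3.20, 3.41 and 3.83 in CSD14, 2.91, 3.09 and 2.73 in ND14 and 3.06, 3.06 and 3.20 in CSD5, with 0.57 (adjusted p = 0.0656) and -0.37 (adjusted p = 0.307). The remaining members, Ccdc40 of the ruler that sets the axoneme's repeat, Ccdc113 and Enkur, ran from 0.17 to 0.26 in CSD14 against ND14 and from -0.37 to -0.26 in CSD5 against CSD14.

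For 5 members (Dnah2, Hydin, Spag6, Spag17 and Tekt2) a second, dimmer cluster carried the same symbol, and none of these was called. Differences of these second clusters ran from -0.18 (Dnah2) to -0.02 (Spag17) in CSD14 against ND14. In CSD5 against CSD14 they ran from -0.12 (Spag6) to 0.31 (Dnah2). The difference called for Hydin in that comparison, -0.84, was 0.04 on its second cluster.

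Genes outside the list gave the setting for these values. Of 73 measured other motile cilium genes, 24 rose and 1 fell in CSD14 against ND14 (median 0.46), and 20 were lower in CSD5 than in CSD14 (median -0.53). With CSD5 replicate 1 left out, 26 rose, 2 fell and 27 were lower in CSD5. Those with the smallest adjusted p were Ulk4 (1.09), Cfap299 (1.26), Nme5 (1.70) and Ropn1l (0.87). The gene that fell was Dnah8, a dynein heavy chain of the sperm tail in mice, at -1.09 (limma adjusted p = 0.023), named after its value was seen. It read 3.03, 2.90 and 3.05 in CSD14, 3.99, 4.04 and 4.21 in ND14 and 3.79, 2.75 and 2.73 in CSD5. CSD5 replicate 1 sat with ND14.

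Of 16 regulators of multiciliogenesis, 4 rose in CSD14 against ND14 (median 0.20) and 3 were lower in CSD5 than in CSD14 (median -0.20), or 4 and 2 without CSD5 replicate 1. Foxj1, the master factor of motile cilia, read 5.67, 6.11 and 5.75 in CSD14, 5.13, 5.40 and 5.06 in ND14 and 4.87, 5.33 and 4.87 in CSD5. It rose by 0.65 (limma adjusted p = 0.0456), with -0.82 for CSD5 against CSD14 (adjusted p = 0.0412, and 0.0635 without CSD5 replicate 1). Gmnc, which starts the multiciliated fate, rose by 1.05 (adjusted p = 0.0216), Fank1 by 0.89 (0.00538) and E2f5 by 0.56 (0.0441). Mcidas (0.30, adjusted p = 0.428), Rfx2 (-0.12, 0.747) and Rfx3 (0.34, 0.151), added here because they are named above as drivers, were not called.

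Genes that motile cilia share with non-motile cilia, such as transition zone and transport train genes, numbered 46 measured. Of these 26 rose in CSD14 against ND14 (median 0.60) and 9 were lower in CSD5 than in CSD14 (median -0.39), or 30 and 6 without CSD5 replicate 1. B9d1 (1.43), Tctn2 (1.28), Ift27 (0.89) and Ift46 (0.66) had the smallest adjusted p. In CSD5 against ND14, 37 of the 46 differences were above 0, with a median of 0.15; of the 36 motile cilium genes, 4 were above 0, with the median of -0.21 given above. In all clusters, the orders of group means with CSD5 above ND14 held 17.3%, 6.48% and 6.95%. Without CSD5 replicate 1, 7 of the 46 rose in CSD5 against ND14. The difference between these lists was not tested.

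**Figure D3:**
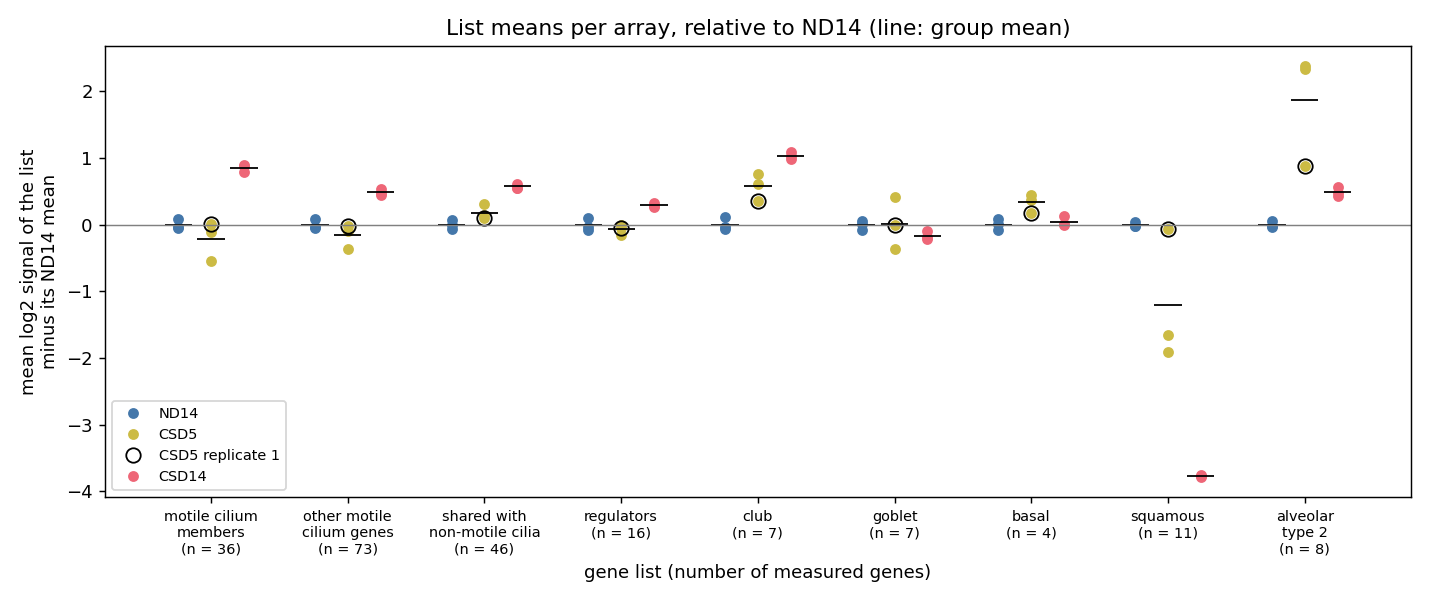
Mean log2 signal of each gene list per array, minus the list's mean over the ND14 arrays, with a point per array and a line per group mean. The CSD14 points of the motile cilium list sit 0.79 to 0.90 above ND14, and its CSD5 points run from 0.00 to -0.54.

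Markers of some other cells also differed between the groups, in varied directions. Of 7 club cell markers 5 rose in CSD14 against ND14 (median 1.08), and the list mean was 9.19 to 9.29 in CSD14, 8.14 to 8.31 in ND14 and 8.57 to 8.97 in CSD5. Of 11 markers of squamous cells 9 fell (median -3.22), and their mean was 5.32 to 5.35 in CSD14 beside 9.08 to 9.15 in ND14. At day 5 the squamous mean was 9.05 in replicate 1 and 7.44 and 7.19 in replicates 2 and 3, and 7 of the 11 were higher in CSD5 than in CSD14 (8 without CSD5 replicate 1). Of 7 club cell markers 3 were lower in CSD5 than in CSD14 (3 lower and 1 higher without CSD5 replicate 1). Of 8 alveolar type 2 markers 2 were higher in CSD5 than in CSD14 and 0 lower (5 higher and 1 lower without CSD5 replicate 1). The alveolar type 2 mean was 6.1, 7.6 and 7.5 in the CSD5 arrays and 5.6 to 5.8 in CSD14. The part of these cell types in the motile cilium values was not tested. In the same comparison of day 14 groups, 1 of 7 goblet markers rose and 2 fell, 1 of 4 basal markers rose and 2 fell, 2 of 8 alveolar type 1 markers rose and 3 fell, and 3 of 8 alveolar type 2 markers and 1 of 8 macrophage markers rose. Of the markers of fibroblasts, endothelial cells and neuroendocrine cells, 0 of 7, 0 of 5 and 0 of 3 were called.

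**Figure D4:**
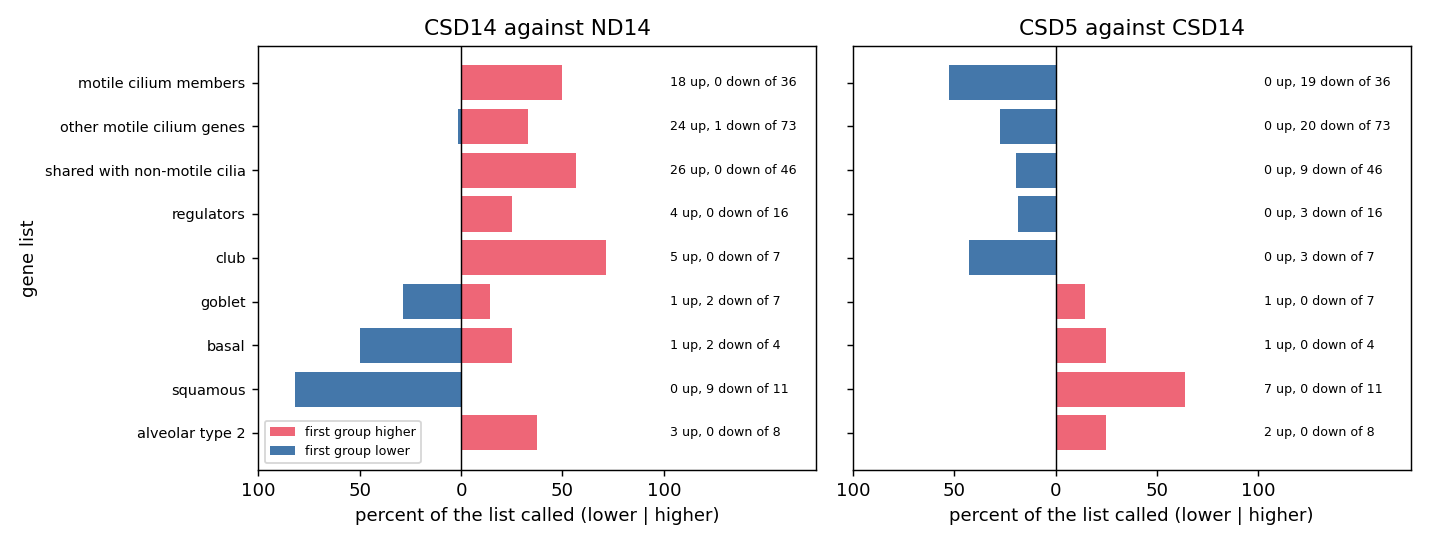
Percent of the genes of each list that limma called higher (right) or lower (left) in CSD14 against ND14 and in CSD5 against CSD14, with counts beside the bars. The motile cilium bars stand at 18 of 36 higher and 19 of 36 lower, beside 5.48% and 1.91% of all clusters.

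Across both comparisons 16 members were called in each, all higher in CSD14. Tekt1 and Ift172 were called against ND14 only, and Dnali1, Rsph4a and Hydin against CSD5 only. The other 15 members passed in neither. In CSD14 against ND14, 11 of the 18 calls (Cdhr3, Cdhr4, Dnah6, Drc1, Dynlrb2, Iqcg, Ppil6, Rsph9, Sntn, Tmem212 and Tppp3) held under all 17 alternatives with an adjusted p, including each array left out in turn. Without ND14 replicate 1 these 11 were the only calls, and the other 7 had limma adjusted p-values from 0.0537 (Ak7) to 0.122 (Lrrc23). Of the 19 calls in CSD5 against CSD14, 7 (Cdhr3, Cdhr4, Drc1, Dynlrb2, Ppil6, Rsph9 and Tmem212) held under all 17. Without CSD14 replicate 1, Dnah5, Dnali1, Hydin, Lrrc23, Rsph1, Rsph4a, Sntn and Tekt4 were not called in that comparison, with adjusted p-values from 0.0562 (Tekt4) to 0.18 (Dnali1). Without CSD14 replicate 3 those not called included Dnah6 (adjusted p = 0.0542).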

How the data were processed

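RNA of 9 lung organoid samples, 3 each of CSD5, CSD14 and ND14, was hybridised to Affymetrix Mouse Gene 2.0 ST arrays. The authors deposited 1 log2 signal for each transcript cluster, made in Transcriptome Analysis Console with background correction and normalization. The algorithm is not given in the sources used here, and the base of the log was taken as 2. The values were used as deposited, with no filter. The number of arrays limits the precision. Groups and replicate numbers came from the sample labels.

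Probe annotation gave 1 symbol to 23521 of 34472 clusters, several to 1820 and none to 9131. A gene was read from the cluster with its symbol alone and the highest mean over the 9 arrays. The members and all gene lists were chosen with earlier results of these data known. Named genes were all members, up to 4 genes per other list with the smallest adjusted p in CSD14 against ND14, and Foxj1. Spag6l, Dnah8, Mcidas, Rfx2 and Rfx3 were added after their values were seen. Marker lists were described by counts.

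The groups were compared in limma 3.58.1 (R 4.3.3), where all 9 arrays entered a single model of the groups, two-sided, with Benjamini-Hochberg adjustment over all clusters and calls at an adjusted p under 0.05. The fit was tested on simulated data. Alternatives were a fit to the 6 arrays of the comparison alone, robust limma-trend, median centring, quantile normalization, removal of clusters under the 40th percentile of mean signal, array weights, a replicate block, each array left out, the mean of a gene's clusters, and the methods' thresholds (fold change over 2 and unadjusted p under 0.05). Promoters were 300-base RefSeq windows on GRCm38.p6. Plots were made in Python 3.11.15 using matplotlib 3.10.9.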

Additional observations from a re-analysis of the deposited data

How the results depend on the processing

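The direction of the members' medians held under every alternative, and no member's call turned round. Among the alternatives, the share of all clusters called was counted only without CSD5 replicate 1, as given above. The other counts of members here have no such share beside them, and whether all clusters moved alike was not tested. For CSD14 against ND14, 18 members called became 28 with array weights, 9 at the methods' thresholds (fold change over 2, unadjusted p under 0.05), and 11 to 21 with an array left out (lowest without ND14 replicate 1, highest without CSD5 replicate 3). For CSD5 against CSD14, 19 became 7 in a fit of only the 6 arrays compared, all 7 among the 19, and 11 to 24 with an array left out (lowest without CSD14 replicate 1, 12 without CSD14 replicate 3, highest without CSD5 replicate 1). For CSD5 against ND14, 0 became 5 with array weights (Cdhr4, Lrrc23, Ak7 and Rsph4a lower and Ift172 higher) and 0 to 5 with an array left out, the 5 coming without CSD5 replicate 1. The median of CSD5 against CSD14 ran from -1.11 without CSD5 replicate 1 to -0.71 without CSD5 replicate 3. That of CSD14 against ND14 ran from 0.71 to 0.84 with an array left out. That of CSD5 against ND14 ran from -0.29 to -0.07, the last without CSD5 replicate 3, and was -0.11 with arrays centred on their medians. The cause was not tested. Calls of Lrrc23, Tekt1, Tekt4, Dnah5 and Ak7 against ND14 and of Dnali1, Hydin and Rsph4a in CSD5 against CSD14 were each lost on leaving out any of at least 5 of the 9 arrays.

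The replicate numbers did not pair the arrays, since arrays of the same number had correlations of -0.133 to 0.065 in their deviations from the group means. With the replicate number as a block 17 members were called in CSD14 against ND14, 16 of them shared, 19 in CSD5 against CSD14 and 0 in CSD5 against ND14. Lrrc23 and Tekt1 were lost against ND14. The filter on low signal removed 1 member.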
